A study of Mus musculus with 8 samples.

Results

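As taken here, the death-associated protein kinase (Dapk) family has 3 members, Dapk1, Dapk2 and Dapk3. These are 3 of the 20667 genes named on the arrays, and 5 of the 45037 measured probe sets carry one of their symbols. Dapk2 has 1 probe set (1451453_at), Dapk1 has 2 (1426915_at and 1427358_a_at) and Dapk3 has 2 (1423446_at and 1456496_at). Every probe set whose symbol in the deposited table was one of these names was taken. The family was chosen by the level of Dapk2, which was lower in the knockout in the same comparison of these arrays, so its difference is given as a description with no test. Dapk1 and Dapk3 were taken as its relatives and not for their own values.

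Articular cartilage and the subchondral bone beneath it, dissected as one block from the mouse tibial plateau, were profiled on 8 microarrays. Of these, 4 came from Anp32a knockout mice (labelled ANP32A KO, without a strain in the labels) and 4 from wild-type C57BL/6 mice, all 8 weeks old. Knockout and wild type are written KO and WT, with the mouse numbers of the titles. All values are log2 RMA values, so 1 unit is a doubling, and differences are KO minus WT with 95% intervals from limma. A call of present, marginal or absent goes with each value. The piece is a mixture of tissues, in which fewer cells of a type and less RNA per cell cannot be told apart.

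Death-associated protein kinases are serine/threonine kinases of the calmodulin-dependent kinase group, known for roles in cell death, autophagy and actomyosin contraction. DAPK1 is the large member and carries ankyrin repeats and a death domain beside its kinase domain. DAPK2, also called DRP-1, is short and, like DAPK1, is released from autoinhibition by calcium-bound calmodulin. DAPK3, also called ZIP kinase, has a leucine zipper and no calmodulin-binding segment. Their kinase domains are closely related, and all act on the regulatory light chain of myosin. In humans DAPK2 transcripts are known from skeletal muscle and granulocytes.

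The labels and the tissue were checked first. The Anp32a probe set 1450407_a_at read 4.60 ± 0.49 in KO, absent on 4 of 4 arrays, against 9.88 ± 0.08 in WT, present on 4 of 4 (SD, n = 4 each), which is at least 38.9-fold lower (limma adjusted p = 5.9e-06). The other Anp32a probe sets were present on 4 of 4 KO arrays and did not pass: 1434555_at read 9.89 ± 0.12 in KO and 10.40 ± 0.04 in WT (SD, n = 4 each; difference -0.51, limma adjusted p = 0.0555), and 1421918_at gave -0.45 (limma adjusted p = 0.0641). The transcript stretch that each probe set reads is not known here, and a probe set outside the deletion does not check the label. The cartilage label was borne out in both genotypes: Col2a1, the main cartilage collagen, read 14.94 ± 0.09 in KO and 14.94 ± 0.08 in WT (SD, n = 4 each). Present calls covered 57.6% to 60.1% of probe sets per array. Of the markers of skeletal muscle, 18 of 18 were present on all 8 arrays, and their mean set KO2 and KO3 apart, as described with Dapk2.

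Dapk2 was lower on each of the 4 KO arrays than on any WT array. It read 8.34, 8.31, 8.56 and 8.39 in KO1 to KO4, against 9.54, 9.25, 9.25 and 9.26 in WT1 to WT4, and it was called present on all 8. The highest KO array, KO3, lay 0.69 below the lowest WT array. Separation of this kind was found for 9.42% of all probe sets, and nothing is read from it for Dapk2. The KO mean was 8.40 ± 0.11 and the WT mean 9.33 ± 0.14 (SD, n = 4 each), a difference of -0.93 (95% interval -1.12 to -0.73), or 1.90-fold lower. In linear terms the change was -47.3% (95% interval -54.1% to -39.5%). Dapk2 stayed present on 4 of 4 KO arrays, so its transcript was reduced and not lost by this reading. Since only 1 probe set reads Dapk2, no second probe set of the gene can be set beside it.

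**Figure D1:**
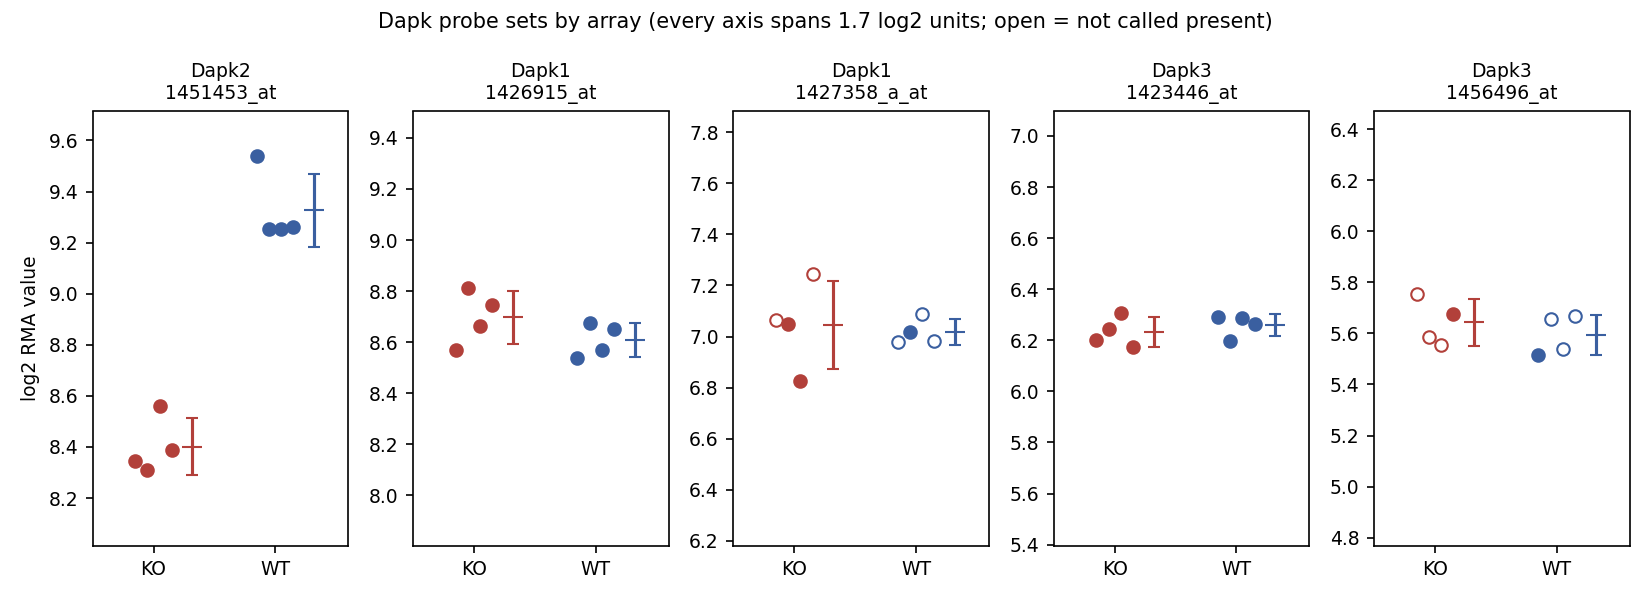
Log2 RMA values (vertical axes, each spanning the same width) of the 5 Dapk probe sets on 4 KO arrays (left in each panel) and 4 WT arrays (right), with mean and SD beside the points; filled points were called present and open points absent. Dapk2 sits at 8.31 to 8.56 in KO and 9.25 to 9.54 in WT, while KO and WT overlap in the other 4 panels.

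Dapk1 did not show this difference. Its probe set 1426915_at, present on all 8 arrays, read 8.57, 8.81, 8.66 and 8.74 in KO1 to KO4, against 8.54, 8.68, 8.57 and 8.65 in WT1 to WT4. The arrays of both genotypes overlapped, with KO2 highest and WT1 lowest. The means were 8.70 ± 0.10 in KO and 8.61 ± 0.07 in WT (SD, n = 4 each), a difference of 0.09 (95% interval -0.07 to 0.25, limma adjusted p = 0.576 over the 45037 features). The other Dapk1 probe set, 1427358_a_at, read 7.07, 7.05, 6.83 and 7.24 in KO1 to KO4, against 6.98, 7.02, 7.09 and 6.98 in WT1 to WT4. It was called present on 2 of 4 KO arrays and 1 of 4 WT arrays. Its KO values spanned 0.42 and enclosed all of the WT values, which spanned 0.11. The difference was 0.03 (95% interval -0.17 to 0.23, limma adjusted p = 0.906).

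Dapk3 did not show it either. Its probe set 1423446_at, present on all 8 arrays, read 6.20, 6.24, 6.31 and 6.17 in KO1 to KO4, against 6.29, 6.20, 6.29 and 6.26 in WT1 to WT4. The KO values enclosed the WT values. The means were 6.23 ± 0.06 in KO and 6.26 ± 0.04 in WT (SD, n = 4 each), a difference of -0.03 (95% interval -0.16 to 0.11, limma adjusted p = 0.869). Of all probe sets, 2.94% had a smaller spread within the genotypes than this one. The second Dapk3 probe set, 1456496_at, read 5.75, 5.59, 5.55 and 5.68 in KO1 to KO4, against 5.52, 5.66, 5.54 and 5.67 in WT1 to WT4. It was called absent on 3 of 4 arrays of each genotype, so most of its values lie at the limit of detection. Its difference was 0.05 (95% interval -0.11 to 0.21, limma adjusted p = 0.788).

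Asked whether the fall of Dapk2 extends to its relatives, the arrays gave 0 of 4 probe sets of Dapk1 and Dapk3 past limma at an adjusted p under 0.05. The background is 24 of 45037 probe sets, or 0.0533%, at that threshold, so most other probe sets did not pass either. None of the 4 had an unadjusted p under 0.05 either, where 18.3% of all probe sets did. The intervals carry the comparison further than the calls do. The lowest bound among the 4 was -0.17, for 1427358_a_at of Dapk1. For 1426915_at and 1423446_at, both present on all 8 arrays, the lower bounds were -0.07 and -0.16. A fall of the size seen for Dapk2 lies outside these intervals. It also lies outside those of 1427358_a_at and 1456496_at. Most calls of these probe sets were absent, and a fall near the limit of detection may not show, so nothing is concluded from them. Although called present throughout, 1423446_at also read low, below 1427358_a_at and above 40.0% of all probe sets. A fall of Dapk3 may read smaller at such a level. A smaller change is not excluded: the best measured Dapk1 probe set allows a linear change from -5.01% to 18.9%, and that of Dapk3 one from -10.8% to 7.88%. By the exact permutation test, two-sided over 70 partitions of the arrays, the 4 gave p = 0.229 and 0.714 for Dapk1 (1426915_at first) and 0.486 and 0.429 for Dapk3 (1423446_at first). The authors' deposited table gives log2 fold changes of 0.09 and 0.03 for the Dapk1 probe sets and -0.03 and 0.05 for the Dapk3 probe sets, in the same order.

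**Figure D2:**
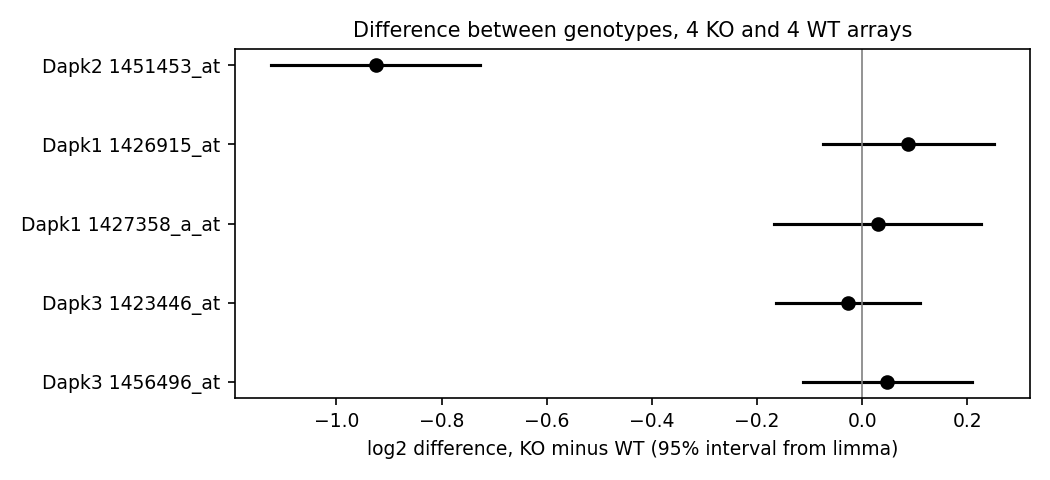
Log2 difference, KO minus WT (horizontal axis), of the 5 Dapk probe sets, with points for the estimates and lines for the 95% intervals from limma over 4 KO and 4 WT arrays. The Dapk2 interval runs from -1.12 to -0.73, and the intervals of the Dapk1 and Dapk3 probe sets all include 0, with a lowest bound of -0.17.

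The arrays also differ in how much muscle RNA they carry, a tissue from which DAPK2 is known. The mean of the 18 muscle markers, among them Acta1, Ckm and Tnnt3, was 13.95, 12.75, 13.32 and 14.12 in KO1 to KO4, against 14.18, 14.10, 14.27 and 14.34 in WT1 to WT4. KO2 and KO3 were thus the lowest, and KO4 lay within the WT range. Among the KO arrays, KO2, KO1 and KO4 had the same order for Dapk2 (8.31, 8.34 and 8.39) as for the muscle markers, and KO3 read highest for Dapk2 at 8.56 with muscle markers second lowest. With the mean of these markers as a covariate the Dapk2 difference was -0.93, and without KO2 and KO3, a choice made after the data were seen, it was -0.96. In both of these fits, which have fewer residual degrees of freedom, the difference was about as large as in the plain one. Its limma adjusted p was not under 0.05 in either, which is bookkeeping, since Dapk2 was chosen for this difference. The part of muscle content in the Dapk2 difference was not tested. The 0 of 4 count for Dapk1 and Dapk3 was also 0 in both.

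Granulocytes, also named above for DAPK2 though other sources are not excluded, were represented by 13 neutrophil markers such as S100a8, Camp and Mpo. All of them were present on all 8 arrays. Their mean was 12.34, 12.47, 12.77 and 12.08 in KO1 to KO4, against 12.44, 12.42, 11.86 and 11.84 in WT1 to WT4. The genotypes overlapped, and the KO mean was 0.27 above the WT mean. The mean of the B cell markers was higher on all KO arrays (8.51 to 9.33 over 4 KO, against 8.13 to 8.41 over 4 WT). So were the means of osteoclast markers (10.43 to 10.84 in KO, against 10.01 to 10.32 in WT) and of osteoblast and osteocyte markers (11.63 to 11.92 in KO, against 11.44 to 11.59 in WT). Of the 11 B cell, 10 osteoclast and 10 osteoblast and osteocyte markers measured, 0 passed limma singly at an adjusted p under 0.05. The part of these lists, neutrophil markers included, in the Dapk2 difference was not tested. Erythroid markers overlapped, at 9.57 to 10.65 in KO and 9.05 to 10.18 in WT, and with their mean as a covariate the Dapk2 difference was -0.99. Chondrocyte markers overlapped at 12.90 to 13.47 in KO and 12.91 to 13.31 in WT. Macrophage, fat, and smooth muscle and vessel markers overlapped as well.

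**Figure D3:**
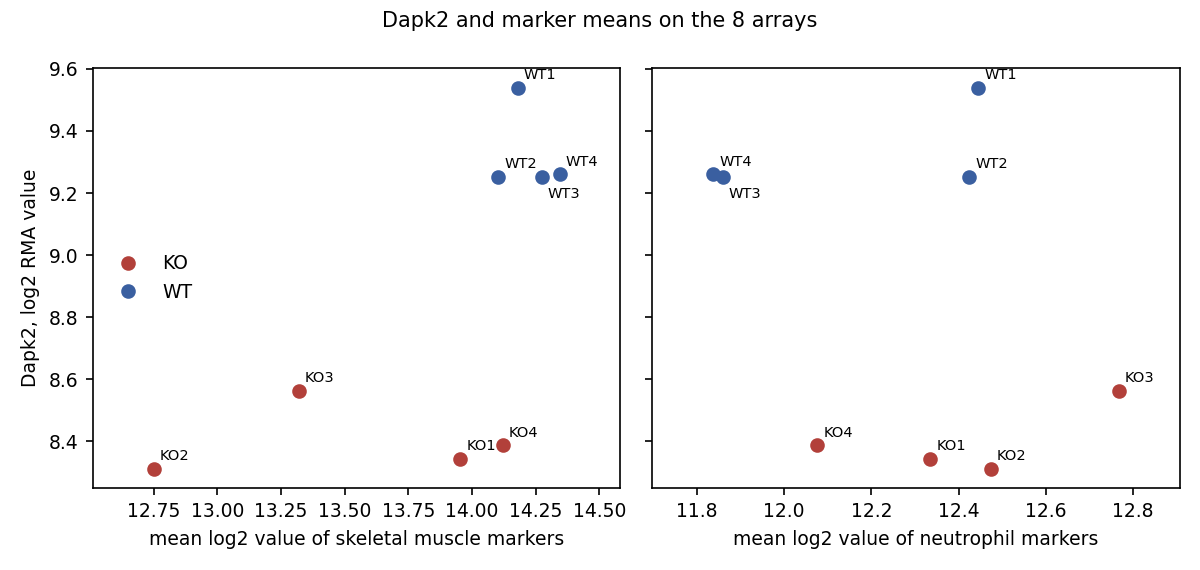
Dapk2 (vertical axis, log2 RMA value) against the mean log2 value of 18 skeletal muscle markers (left) and 13 neutrophil markers (right) on each of 4 KO and 4 WT arrays. The 4 KO arrays lie at 8.31 to 8.56 for Dapk2 over muscle means from 12.75 to 14.12, and KO4 has a muscle mean inside the WT range.

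Other kinases of the calmodulin-dependent group were measured by 42 probe sets of 16 genes, and 0 passed limma at an adjusted p under 0.05. At an unadjusted p under 0.05 there were 6 higher and 9 lower in KO, together 35.7%, beside 18.3% of all probe sets. The median difference was -0.13, beside 0.01 over all probe sets, and 31 of the 42 lay below 0. The 4 genes with the smallest p were Camk2a, Camk2g and Camk2d, subunits of calcium/calmodulin-dependent kinase II, and Mylk4, a kinase of the myosin light chain kinase family. Camk2a (1443876_at) read 6.94, 6.66, 6.54 and 7.33 in KO1 to KO4, against 7.39, 7.51, 7.66 and 7.66 in WT1 to WT4 (difference -0.69, limma adjusted p = 0.135). Mylk4 read 12.19, 9.55, 10.86 and 12.09 in KO1 to KO4, against 12.48, 12.50, 12.69 and 12.82 in WT1 to WT4 (difference -1.45, limma adjusted p = 0.18). Mylk4 was thus lowest on KO2 and KO3, the arrays with the lowest muscle markers, and with the muscle marker mean as a covariate its difference was -0.12. Camk2g and Camk2d gave -0.55 and -0.33 (limma adjusted p = 0.15 and 0.159), and -0.18 and -0.20 with that covariate. Camk2a gave -0.37 with it. The marker mean itself differed between the genotypes (13.54 in KO and 14.23 in WT). The part of muscle content in the differences of this list and of the lists below was not tested.

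Regulators of the Dapk kinases were covered by 58 probe sets of 19 genes, and 0 passed limma. At an unadjusted p under 0.05 there were 8 higher and 10 lower in KO, together 31%, beside 18.3% of all probe sets, and the median was -0.03, beside 0.01. Hsp90ab1, a chaperone of many kinases, had the smallest p, at 12.54 ± 0.09 in KO and 12.92 ± 0.16 in WT (SD, n = 4 each; difference -0.38, limma adjusted p = 0.135). Ppp2ca is a catalytic subunit of protein phosphatase 2A, which dephosphorylates DAPK1. It read 10.39 ± 0.16 in KO and 10.04 ± 0.06 in WT (SD, n = 4 each), a difference of 0.35 (limma adjusted p = 0.139). The brighter Ppp2ca probe set, present on all 8 arrays, gave 0.05 (limma adjusted p = 0.77). Cul3, the scaffold of the ubiquitin ligase that with KLHL20 acts on DAPK1, read 8.91 ± 0.38 in KO and 9.55 ± 0.10 in WT (SD, n = 4 each; difference -0.64, limma adjusted p = 0.139). It was lowest on KO2 and KO3, at 8.55 and 8.63, and gave -0.25 with the muscle covariate. Ywhag, a 14-3-3 protein gene, gave -0.41 (limma adjusted p = 0.139) with 1 present call in each genotype. With the muscle covariate Ywhag, Hsp90ab1 and Ppp2ca gave -0.28, -0.38 and 0.23.

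Substrates and partners were covered by 51 probe sets of 18 genes, of which 0 passed limma, with 6 higher and 7 lower at an unadjusted p under 0.05, together 25.5% beside 18.3% of all probe sets, and a median of -0.02 beside 0.01. Map1b, a microtubule-associated protein that binds DAPK1, read 8.16, 8.18, 8.08 and 8.37 in KO1 to KO4, against 8.68, 8.66, 8.92 and 8.62 in WT1 to WT4 (difference -0.52, limma adjusted p = 0.102). The genotypes did not overlap for Map1b, as for 9.42% of all probe sets. Myl9, a regulatory light chain of myosin in smooth muscle and non-muscle cells, gave -0.32 (limma adjusted p = 0.151). Stat3, a transcription factor bound by ZIP kinase, gave 0.24 in its probe set of smallest p (limma adjusted p = 0.165). The other Stat3 probe sets gave -0.04, -0.02 and -0.002, the first and last of them brighter and present on all 8 arrays. Tpm1, an actin-binding tropomyosin, gave -1.36 in its probe set of smallest p (limma adjusted p = 0.168), and -0.18 with the muscle covariate. Of the calmodulin family, Calml3 and Calm4 gave differences of -0.08 and 0.01 (limma adjusted p = 0.914 and 0.975). Calm4 was called present on 0 of the 8 arrays.

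**Figure D4:**
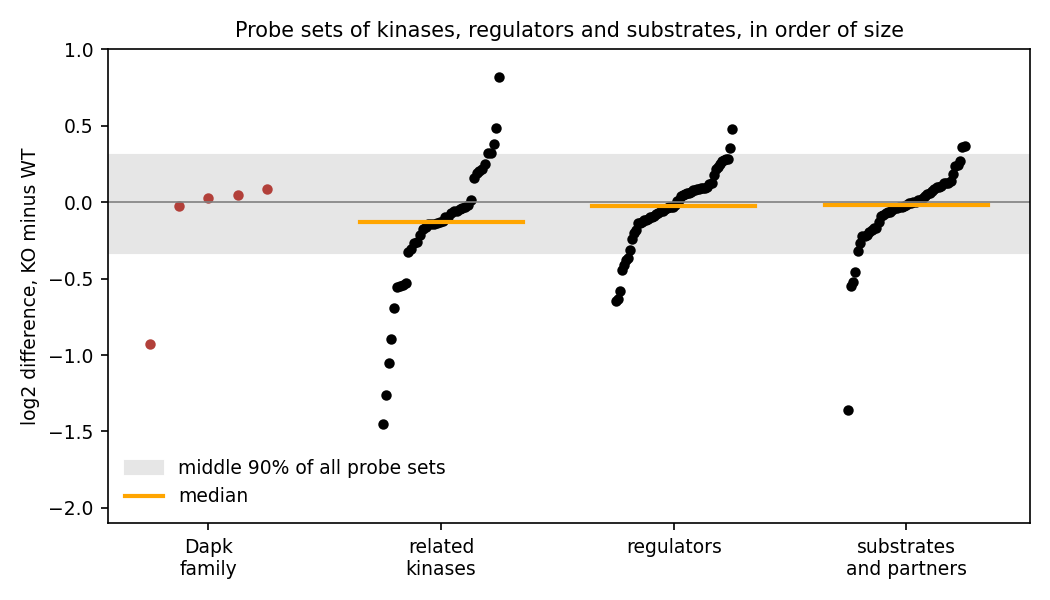
Log2 difference, KO minus WT (vertical axis), of each probe set of the Dapk family, related kinases (42 probe sets), regulators (58) and substrates and partners (51), sorted within a group; orange lines are medians and the grey band holds the middle of all probe sets, from -0.33 to 0.31. Of the Dapk family only Dapk2 lies outside the band.

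The counts in these lists changed with KO4. Without that array 3579 of 45037 probe sets passed, or 7.95%. Of the related kinases 2 were then called higher and 9 lower, of the regulators 4 higher and 8 lower, and of the substrates and partners 0 higher and 5 lower. Camk2a, Camk2g, Camk2d, Hsp90ab1, Ppp2ca, Cul3, Ywhag, Map1b, Myl9 and Tpm1 passed in that fit (limma adjusted p = 0.0184 to 0.0348), and Mylk4 and Stat3 did not (limma adjusted p = 0.0581 and 0.0954). The Dapk1 and Dapk3 probe sets stayed at 0 of 4 in it. Without KO2 and KO3, or after the muscle marker mean was added as a covariate (6 of 45037 probe sets called, or 0.0133%), 0 probe sets of these 3 lists passed.

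Dapk2 lies on mouse chromosome 9, as does the targeted gene Anp32a, with 50 measured genes between them, while Dapk1 lies on chromosome 13 and Dapk3 on chromosome 10. The order of genes is that of the GRCm38.p6 annotation, and the files name no build. The 10 nearest measured genes on each side of Dapk2 have 49 probe sets, of which 1 passed lower and 0 higher in KO, beside 0.0333% lower over all probe sets. That one, 1419152_at of Pclaf, a PCNA-binding factor, read 5.16 ± 0.43 in KO and 8.22 ± 0.36 in WT (SD, n = 4 each; difference -3.05, limma adjusted p = 0.000991), while 1419153_at of Pclaf gave 0.48 (limma adjusted p = 0.218) and passed as higher without KO4 (0.64, limma adjusted p = 0.0424). At an unadjusted p under 0.05 there were 7 higher and 9 lower, together 32.7%, beside 18.3% of all probe sets. Without KO4, 6 were called higher and 5 lower (22.4%), beside 7.95% of all probe sets. Next by p came Csnk1g1, a casein kinase gene (0.41), Lactb, a mitochondrial serine beta-lactamase-like protein gene (-0.33), and Tln2, a talin gene (-0.55), with limma adjusted p = 0.134, 0.136 and 0.15. Of these 3, Csnk1g1 and Tln2 passed without KO4 (limma adjusted p = 0.0288 and 0.0234) and Lactb did not (0.0506).

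The genes directly beside Dapk2 gave no difference of its size. Fam96a on one side and Herc1 on the other, named for their place, have 5 probe sets, with differences from 0.04 to 0.34 limma adjusted p from 0.33 to 0.948, and a lowest 95% bound of -0.40 (Herc1). Around Dapk1, 34 probe sets of the 20 nearest genes gave 0 calls, with 3 higher and 2 lower at an unadjusted p under 0.05 (14.7%). Around Dapk3, 37 probe sets gave 0 calls, with 4 higher and 5 lower (24.3%), beside 18.3% of all probe sets for both. Without KO4, 2 probe sets around Dapk1 were called higher and 0 lower, and 0 around Dapk3 were called higher and 4 lower, beside 7.95% of all probe sets. Whether the place of Dapk2 near Anp32a bears on its level was not tested, and no strain is stated for the KO mice.

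**Figure D5:**
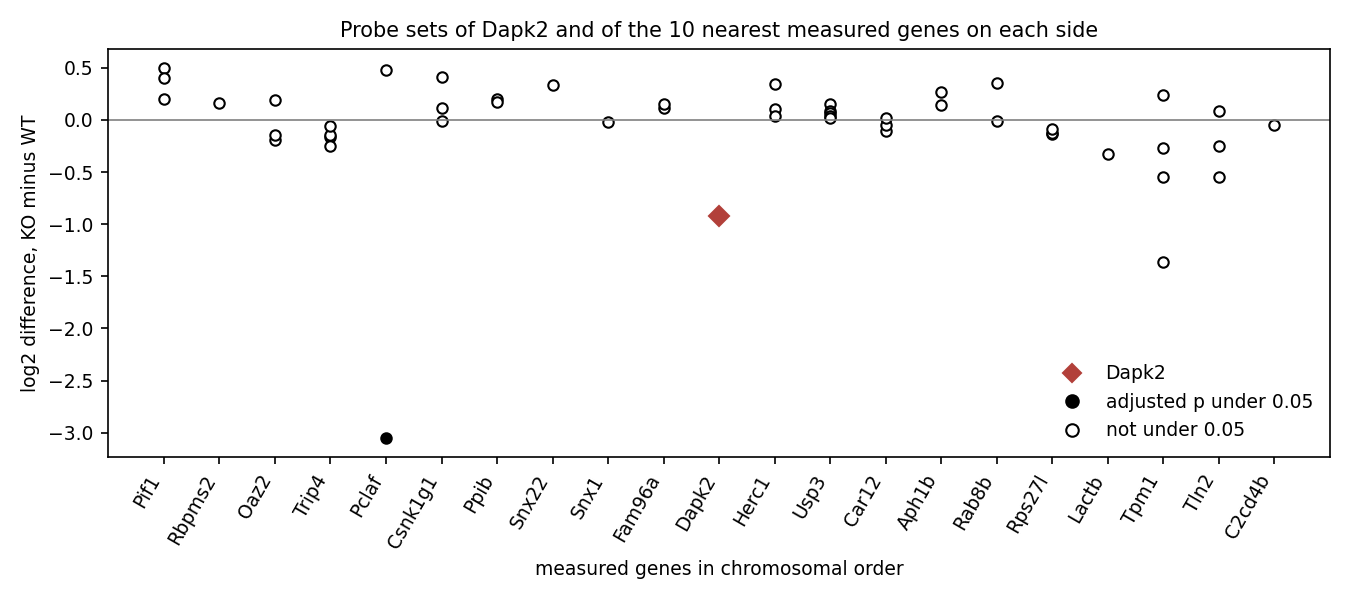
Log2 difference, KO minus WT (vertical axis), of the probe sets of Dapk2 (diamond) and of the 10 nearest measured genes on each side in chromosomal order (horizontal axis, evenly spaced); filled circles had a limma adjusted p under 0.05. Dapk2 is at -0.93, 1 Pclaf probe set at -3.05, and the genes directly beside Dapk2 lie at 0.04 to 0.34.

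The genes whose pattern was most like that of each kinase were ranked by Pearson's r with its brightest probe set over the 8 arrays, among 13036 genes present on at least 4 arrays. All of the values come from the same 8 arrays, and the highest r of so many genes is high by selection, so these are descriptions. For Dapk2 they were Kbtbd3 (r = 0.97), Oxsm (0.97), Plet1os (0.96), a gene model without a name (0.95) and Col7a1 (0.95). After genotype means were subtracted these fell to between 0.01 and 0.78, so much of the likeness is the shared difference between genotypes. For Dapk1 they were Klhl22 (r = 0.97), Hyal2 (0.96), Ccnd1 (0.95), Vps8 (0.95) and Calu (0.95), at 0.94 to 0.96 after subtraction. For Dapk3 they were Snx12 (r = 0.92), Cep120 (0.92), C030034I22Rik (0.90), Med13 (0.90) and Arhgef3 (0.89), at 0.89 to 0.92 after subtraction. The 3 lists have no gene in common.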

How the data were processed

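The authors made log2 values per probe set with RMA, per the submitters' processing notes; for array design and software versions, the sources used here state nothing. Per the file headers, 1 deposited table adds symbols, detection calls (from whatever caller the authors used) and the authors' log2 fold changes and p-values; 64 rows without an identifier were left out. Quantile normalization within RMA makes array distributions equal, so a shift common to most genes would not show.

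All 45037 probe sets were fitted with limma 3.58.1 in R 4.3.3 (lmFit, eBayes, genotype as the only term, two-sided), with Benjamini-Hochberg adjustment over all of them and a threshold of 0.05. No filter or further normalization was applied. With 4 arrays per group, 1 numbered mouse each per the file headers, the number of arrays limits the precision, and p-values measure the spread between these samples. The fit was tested on simulated data. Where all arrays of a group called a probe set absent, the fold is a lower bound ("at least"): on each such array its value, or the lowest present value of that array if higher, was used.

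The members, gene lists and tests were chosen with earlier results of these data known. Named are all Dapk probe sets, per list the 4 genes of smallest p and any called, and the same for neighbours of Dapk2. Each listed gene is given by its probe set of smallest p unless another is named. Also named are 5 genes of highest r per kinase, and other names are said to be so. Marker means use the brightest probe set of each marker. Gene order and chromosomes came from the GRCm38.p6 table. Same-numbered KO and WT arrays were checked for pairing. Their deviations from genotype means correlated at 0.07, 0.51, -0.34 and 0.30 for numbers 1 to 4. So few correlations cannot exclude pairing, but the labels state none, and the main fit has no block.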

Additional observations from a re-analysis of the deposited data

Results flagged for a closer look

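Of the 10 sets of 4 values examined (5 Dapk probe sets in KO and in WT), 1 held an array far from the others. For Dapk2, WT1 read 9.54, while the nearest WT array read 9.26, a gap of 0.97 of the WT range, above Dixon's critical value for 4 samples. Chance alone marks about 1 in 20 such sets. Without WT1 the Dapk2 difference was -0.85.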

How the results depend on the processing

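The Dapk1 and Dapk3 counts were 0 under all 20 alternatives run for each, which include leaving out each array, where the counts were 0 to 0. Their single probe sets kept adjusted p of at least 0.397, and 1427358_a_at of Dapk1 (down to -0.04) changed sign in 1 alternative, without a call. For Dapk3, 1423446_at stayed below 0 throughout, and the mean of the Dapk3 probe sets gave 0.01, without a call. The Dapk2 difference ranged from -0.99 to -0.85. Dapk2 was chosen for this difference, so whether it passes is bookkeeping and supports nothing: its 1 probe set was under the threshold with 1 array left out (1 to 1), and 0 of 1 was with the muscle marker mean as a covariate (-0.93) and without KO2 and KO3 (-0.96, chosen after the data were seen), both fits with fewer residual degrees of freedom. With the replicate block 21 probe sets passed, and the Dapk1 and Dapk3 counts stayed at 0; 3 of 8 arrays correlated best with their own number.

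The count over all probe sets, 24, was 9 to 3579 when 1 array was left out: 3579 without KO4, 14, 9, 10 and 14 without WT1 to WT4, and 24, 18 and 17 without KO1 to KO3. It was 41 with array weights, 6 with the muscle covariate, 11 with the erythroid covariate and 7 without KO2 and KO3. By gene it was 11 with the brightest probe set and 12 with the mean of probe sets, over 20667 genes. The 4 arrays per group and the weak signal of 1456496_at limit what could be seen for Dapk3.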
